A study of Mus musculus with 15 samples.

Results

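The genes described here are 10 members of the circadian clock and its direct output, Per1, Per2, Per3, Dbp, Nr1d1, Nr1d2, Arntl, Ciart, Bhlhe41 and Tef, chosen by name from the 29659 genes listed for each library. All 10 were found in every library and all 10 passed the filter on low values, which 15804 genes passed. The question was whether the state of the clock differed between libraries, between genotypes and between EL and ELKO libraries that carry the same replicate number.

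The data were 15 RNA-seq libraries of thalamus from 4.5-month-old mice. ELKO mice (n = 3) were homozygous for a human APOE4 knock-in (APOE4+/+) and lacked Lilrb4a (Lilrb4a-/-). The methods do not spell out the genotype of EL mice (n = 3), which are read here by their name as the APOE4 knock-in with Lilrb4a intact. The 5EL (n = 5, Lilrb4a+/+) and 5ELKO (n = 4, Lilrb4a-/-) mice were also APOE4+/+ and in addition carried 5xFAD, a transgenic model of amyloid deposition that the Thy1 promoter drives in neurons. Lilrb4a is an inhibitory receptor of myeloid cells, which include microglia. The mice lived on an alternating light and dark cycle, and the hour at which each thalamus was collected is not given in the sources used here.

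The mammalian clock is a loop of transcription in which ARNTL (BMAL1) and CLOCK bind E-boxes and switch on their own repressors. The PER and CRY proteins are repressors of that complex, CIART (CHRONO) and BHLHE41 (DEC2) add further repression, and NR1D1 and NR1D2 (REV-ERB) repress Arntl through RORE elements. DBP and TEF are activators that bind D-boxes, and they carry the rhythm to output genes. In most tissues Dbp and Nr1d1 transcripts peak before Per2, and Arntl peaks in the opposite part of the day. The thalamus has no master pacemaker of its own; that lies in the suprachiasmatic nucleus of the hypothalamus.

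The genome positions of the members differ. In GRCm38, with GENCODE M21 gene models, Per1 lies at chr11:69095217-69109960, Per2 at chr1:91415982-91459324, Per3 at chr4:151003652-151044665 and Arntl at chr7:113207465-113314126. Dbp lies at chr7:45705088-45710203, Tef at chr15:81802421-81826863, Ciart at chr3:95878503-95882251 and Bhlhe41 at chr6:145858243-145865558. Nr1d1 lies at chr11:98767932-98775333 and Nr1d2 at chr14:18204054-18239127. Reads were counted without regard to strand, so genes that overlap on opposite strands can be mixed. Dbp shares 539 of its 2993 exonic bases with Sphk2, and Nr1d1 shares 263 of 3077 with Thra. Bhlhe41 shares 1280 of 6720 with the unconfirmed model Gm43909, and Tef (193) and Arntl (33) share short stretches with antisense models. The values of these 5 genes are uncertain to that extent. No exonic base of Per1, Per2, Per3, Nr1d2 or Ciart is shared.

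Promoter sequences are printed for 6 members because they hold the elements through which the loop acts. RefSeq windows of GRCm38.p6, from 250 bases before to 50 bases after the start, were matched for 9 of the 10 members (12 windows), all but Per2. They were searched on both strands for the E-box CACGTG, the D-box TTATGTAA and the RORE core TAGGTCA, which do not overlap in these windows. Of all 32817 windows, 7.15% hold the E-box, 0.935% the D-box and 2.61% the RORE core. Among the members, Ciart, Bhlhe41, Per1 and Tef hold an E-box, Per3 the D-box and Arntl the RORE core. The windows of Dbp, Nr1d1 and Nr1d2 hold none of these letters. A match describes these letters only. For each of the 6 members the window with the most matches is given, and for Tef, whose 2 windows hold 1 E-box each, the first of them, 5′ to 3′ on the gene's strand, with the matches in capitals.
Ciart: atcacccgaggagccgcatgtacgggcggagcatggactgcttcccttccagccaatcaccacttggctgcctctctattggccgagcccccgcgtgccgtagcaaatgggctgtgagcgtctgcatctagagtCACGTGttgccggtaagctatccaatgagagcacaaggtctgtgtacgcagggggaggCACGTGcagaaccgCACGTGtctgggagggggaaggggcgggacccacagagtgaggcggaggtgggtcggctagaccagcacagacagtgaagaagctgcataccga
Bhlhe41: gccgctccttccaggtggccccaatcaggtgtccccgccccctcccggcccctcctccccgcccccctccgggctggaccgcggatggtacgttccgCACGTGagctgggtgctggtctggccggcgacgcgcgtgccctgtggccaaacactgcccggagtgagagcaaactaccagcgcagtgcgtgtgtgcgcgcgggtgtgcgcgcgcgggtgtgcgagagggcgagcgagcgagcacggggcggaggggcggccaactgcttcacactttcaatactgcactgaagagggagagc
Per1: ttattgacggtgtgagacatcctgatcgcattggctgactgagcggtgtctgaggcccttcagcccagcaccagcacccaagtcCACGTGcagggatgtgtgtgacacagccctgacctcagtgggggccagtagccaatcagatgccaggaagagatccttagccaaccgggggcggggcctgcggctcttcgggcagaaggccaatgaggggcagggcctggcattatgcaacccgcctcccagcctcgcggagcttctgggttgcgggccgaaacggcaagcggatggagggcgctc
Tef: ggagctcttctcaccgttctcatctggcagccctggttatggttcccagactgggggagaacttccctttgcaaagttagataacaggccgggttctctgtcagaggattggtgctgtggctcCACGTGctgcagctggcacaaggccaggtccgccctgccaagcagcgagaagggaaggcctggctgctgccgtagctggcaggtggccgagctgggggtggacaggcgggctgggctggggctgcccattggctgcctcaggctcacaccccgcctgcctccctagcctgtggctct
Per3: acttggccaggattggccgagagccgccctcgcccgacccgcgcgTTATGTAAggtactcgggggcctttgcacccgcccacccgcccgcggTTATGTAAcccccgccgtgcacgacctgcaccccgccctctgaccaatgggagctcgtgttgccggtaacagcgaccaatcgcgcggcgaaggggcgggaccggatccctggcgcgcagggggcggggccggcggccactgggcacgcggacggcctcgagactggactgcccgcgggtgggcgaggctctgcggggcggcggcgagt
Arntl: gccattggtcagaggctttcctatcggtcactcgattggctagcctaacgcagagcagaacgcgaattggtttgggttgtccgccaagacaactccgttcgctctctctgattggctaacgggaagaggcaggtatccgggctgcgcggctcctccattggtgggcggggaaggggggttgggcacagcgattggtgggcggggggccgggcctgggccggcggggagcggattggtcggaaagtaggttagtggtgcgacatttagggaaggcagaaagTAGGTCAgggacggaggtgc
These windows lie at chr3:95882179-95882478 (minus strand), chr6:145865371-145865670 (minus strand), chr11:69098699-69098998 (plus strand), chr15:81802423-81802722 (plus strand), chr4:151044616-151044915 (minus strand) and chr7:113207261-113207560 (plus strand). Ciart holds 3 E-boxes, which begin 116, 58 and 44 bases before the start. The single E-boxes of Bhlhe41, Per1 and Tef begin 153, 166 and 127 bases before it. Per3 holds 2 D-boxes, 205 and 158 bases before the start, and the RORE core of Arntl begins 30 bases after it.

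Several libraries stood apart in genes outside the clock. The thalamic markers Tcf7l2 (12.8 to 13.2) and Slc17a6 (13.7 to 14.0) were high in all 15 libraries on the log2 scale, while Vip (3.07 to 3.39) and Nms (2.76 to 2.95), markers of the suprachiasmatic nucleus, lay near the bottom. Other hypothalamic genes did not: the neuropeptide Avp ran from 5.70 to 8.54 and was highest in 5EL replicate 3 (8.54), 5EL replicate 2 (8.18) and ELKO replicate 1 (8.03), and Oxt ran from 6.09 to 10.27 with the same 3 libraries on top. The 5 of 10 suprachiasmatic and hypothalamic genes that passed the filter averaged 6.14 to 6.74 in these 3 and 4.93 to 5.81 in the other 12. The part of such tissue in the clock gene values was not tested. Lilrb4a lay below the filter on low values (3.32 on the log2 scale) in all 15 libraries, at 2.33 to 2.66. It was at most 2.33 in the 7 knockout libraries and at least 2.34 in the other 8, a narrow gap near the floor. Choroid plexus genes (12 of 12 measured) averaged 8.58 in 5EL replicate 1 and 8.95 in ELKO replicate 2, against 6.40 to 6.92 in the other libraries. The hepatocyte genes Alb (8.59) and Serpina3k (5.89) were highest in EL replicate 1, which enters the comparisons with EL. Mouse Apoe, which the knock-in replaces, reached 10.9 in ELKO replicate 1 but stayed at 5.92 to 6.37 elsewhere. Several, but not all, of the calls and correlations that this library enters are therefore also given without it. The leading component of variation within groups held 40.4% of the variance and set EL replicate 3 (21.3) and ELKO replicate 3 (17.6) apart from EL replicate 1 (-16.3), with the other 12 libraries between -8.98 and 4.73. Bulk tissue cannot tell fewer cells of a type from less RNA per cell.

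Per2 varied most from library to library within a genotype. Per2, a repressor of the CLOCK and ARNTL complex, ranged over 0.65 on the log2 scale, from 8.46 in EL replicate 3 to 9.12 in 5EL replicate 1. In 5EL, Per2 was 9.12, 8.55, 9.04, 8.80 and 8.54 in replicates 1 to 5, and in 5ELKO it was 9.05, 8.75, 8.66 and 8.59 in replicates 1 to 4. In EL it was 8.78, 8.71 and 8.46, and in ELKO 9.11, 8.64 and 8.60. Per2 thus reached 9.12 in 5EL, 9.05 in 5ELKO and 9.11 in ELKO but only 8.78 in EL, and all groups overlapped. The within-group SD of Per2 was 0.237, and 4.56% of the genes tested had a larger one. The median SD over all genes was 0.098. Per1, its closest relative, had an SD of 0.164 (13.9% of genes larger) and Per3 of 0.129 (27.0% larger). Tef varied less (SD 0.0787), between 12.14 and 12.45.

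**Figure D1:**
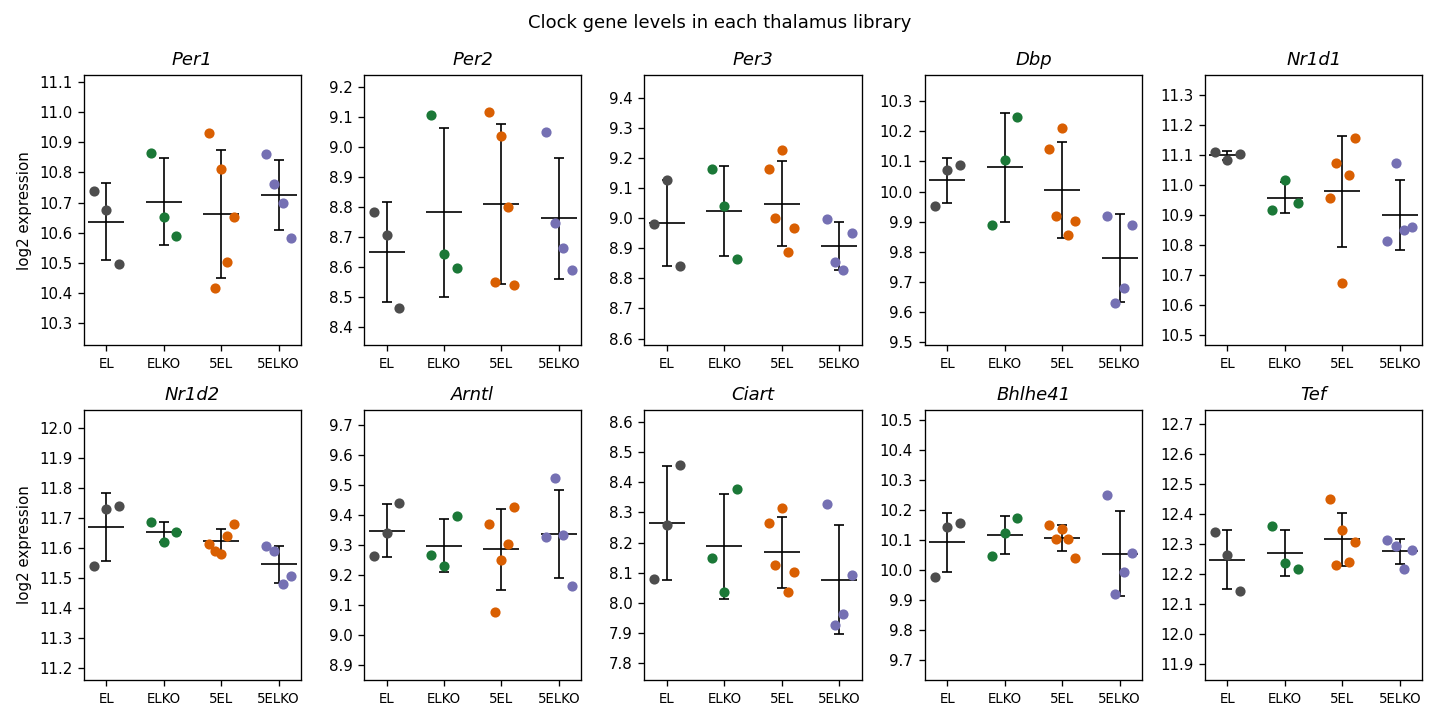
Log2 expression of each clock gene (vertical axes, all of the same span) in the 15 libraries by genotype. Each point is a library, ordered left to right by replicate number; the wide bar is the group mean and the whiskers are 1 SD. The 5ELKO points for Dbp sit lowest on average, at 9.63 to 9.92, and overlap 5EL at 9.86 to 10.21.

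Dbp, an activator at D-boxes and usually a strongly rhythmic output of the clock, had a within-group SD of 0.149, and 18.7% of genes had a larger one. Ciart, a repressor with 3 E-boxes in its promoter window, had an SD of 0.162 (14.6% larger). It ran from 7.93 in 5ELKO replicate 2 to 8.46 in EL replicate 3. Nr1d2 was the steadiest of the 10, with an SD of 0.0644 (84.1% of genes larger), and ranged over 0.26. Nr1d1, its relative, had an SD of 0.129, and its lowest library was 5EL replicate 3 at 10.68. Arntl, the activator of the loop, had an SD of 0.124 (30.2% larger) and lay between 9.08 and 9.52. The spread of all 10 was modest in fold: the highest library exceeded the lowest by 1.57-fold for Per2, 1.54-fold for Dbp and 1.20-fold for Nr1d2. These folds are on the deposited scale.

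With the group means removed, the members formed more than 1 set when all 15 libraries were pooled. Per1, Per2, Per3 and Tef rose and fell together, and Dbp, Ciart and Bhlhe41 did so as another set. Both sets were recognised after their values were seen. The permutations moved libraries within genotypes and did not take into account that EL and ELKO libraries of the same number deviate together over all genes (r = 0.45, 0.33 and 0.74), so the 15 libraries are fewer independent units than their number and the permutation p-values may be too small. The strongest relation was between Per1 and Tef (r = 0.89, permutation p = 0.00028; rho = 0.89, permutation p = 0.00046), with an adjusted p of 0.0063 over the 45 pairs computed. Per1 and Per2 gave r = 0.87 (permutation p = 0.001; rho = 0.80, permutation p = 0.00619; adjusted p = 0.015), and Per2 and Tef gave r = 0.80 (permutation p = 0.00252; rho = 0.79, permutation p = 0.00465; adjusted p = 0.0189). Without the 2 libraries farthest from the median these were 0.84, 0.83 and 0.68. Within the 9 5xFAD libraries alone they were 0.88, 0.83 and 0.72, and within the other 6 they were 0.97, 0.98 and 0.92. Per3 was less close, with r between 0.72 and 0.73 to the other 3 and an adjusted p of 0.0728 each.

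In the other set, Dbp and Bhlhe41 gave r = 0.74 (permutation p = 0.00012; rho = 0.80, permutation p = 0.00011; adjusted p = 0.0054). Ciart and Bhlhe41, both repressors, gave r = 0.82 (permutation p = 0.00152; rho = 0.80, permutation p = 0.0049; adjusted p = 0.0171). Dbp and Ciart gave r = 0.78 (permutation p = 0.00201; rho = 0.71, permutation p = 0.00531; adjusted p = 0.0181). Without the 2 farthest libraries the 3 values were 0.77, 0.73 and 0.81. They were 0.70, 0.88 and 0.91 within the 9 5xFAD libraries and 0.82, 0.76 and 0.61 within the other 6. Of the 45 pairs, 13 had a permutation p under 0.05, 10 positive and 3 negative, and the 6 named here, all positive, kept an adjusted p under 0.05. Without ELKO replicate 1, Per2 and Tef gave r = 0.75 with an adjusted permutation p of 0.0762, and the other 5 kept an adjusted p of at most 0.04.

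Between the sets the pooled values were low, but they joined libraries in which the relations had opposite signs. Per1 and Dbp gave r = 0.18 over the 15 libraries, 0.60 within the 9 5xFAD libraries and -0.88 within the other 6. Tef and Ciart gave 0.00, 0.61 and -0.71 in the same order. Per3 and Dbp gave 0.32, 0.95 and -0.68, and Per3 and Ciart gave 0.18, 0.86 and -0.62. Every pair with 1 gene from each set was positive within the 5xFAD libraries (0.33 to 0.95) and negative within the EL and ELKO libraries (-0.90 to -0.41). Without the number 3 pair the pooled values between the sets ran from 0.09 for Tef and Bhlhe41 to 0.88 for Per3 and Ciart. Per3 and Dbp then gave 0.78, and Per1 and Dbp 0.40. Without ELKO replicate 1, Dbp gave 0.44 with Per1, 0.52 with Per2, 0.63 with Per3 and 0.38 with Tef. The smallest adjusted permutation p of these was 0.142, for Per3. Pairs of the Per and Tef set with Ciart or Bhlhe41 then ran from -0.0006 to 0.38. The separation of the sets over 15 libraries thus depended in part on the EL and ELKO libraries. These splits are given as a description, with no test of their difference.

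**Figure D2:**
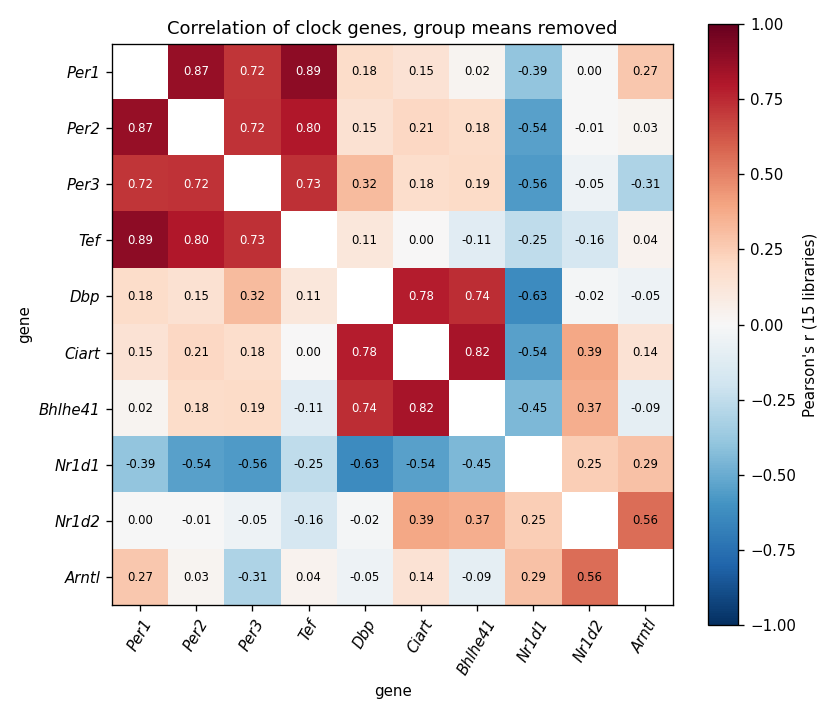
Pearson's r between each pair of clock genes (both axes, genes) over 15 libraries with group means removed; red is positive and blue negative. Per1, Per2, Per3 and Tef form a red square (0.72 to 0.89), Dbp, Ciart and Bhlhe41 form another (0.74 to 0.82), and the Nr1d1 row is blue against both. The pale cells between the squares pool positive values in the 9 5xFAD libraries with negative ones in the other 6, such as 0.60 and -0.88 for Per1 and Dbp.

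Nr1d1, the repressor of Arntl, had a negative r with each gene of both sets over the 15 libraries, and none held after adjustment. Only its relations to Dbp, Per3 and Ciart had a permutation p under 0.05. The r of Nr1d1 was -0.39 with Per1, -0.54 with Per2, -0.25 with Tef and -0.45 with Bhlhe41. Its r was -0.63 with Dbp (permutation p = 0.0205; rho = -0.53, permutation p = 0.0869; adjusted p = 0.0838), and -0.68 without the 2 farthest libraries. It was -0.80 within the 9 5xFAD libraries and 0.24 within the other 6, so the negative relation was not seen in the EL and ELKO libraries. Without ELKO replicate 1 it was -0.79 (permutation p = 0.00262; rho = -0.79, permutation p = 0.00262; adjusted p = 0.0236) and so passed after adjustment. With Per3 it was -0.56 (permutation p = 0.0343; rho = -0.52, permutation p = 0.0542; adjusted p = 0.128), and -0.40 without the 2 farthest libraries. It was -0.75 within the 5xFAD libraries and -0.22 within the others. With Ciart it was -0.54 (permutation p = 0.016; rho = -0.59, permutation p = 0.012; adjusted p = 0.0728), -0.54 without the 2 farthest libraries, -0.68 within the 5xFAD libraries and -0.42 within the others. Arntl, which opposes the E-box genes in phase in a cycling tissue, was negative with 3 of the other 9 members over the 15 libraries. Its r with Dbp was -0.05, from -0.29 within the 5xFAD libraries and 0.67 within the others. With Per2 it was 0.03, from 0.24 and -0.58, and with Per1 0.27, from 0.54 and -0.72. With Per3 it was -0.31, from -0.17 and -0.68. The values of Arntl over the pooled libraries thus mix different relations as well. Its closest member was Nr1d2 (r = 0.56, permutation p = 0.0371; rho = 0.56, permutation p = 0.0517; adjusted p = 0.128), with 0.52 without the 2 farthest libraries, 0.62 within the 5xFAD libraries and 0.62 within the others.

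The genes outside the 10 whose values followed Dbp and Arntl most closely over the 15 libraries were read off as a description. For Dbp they were Kcnj8 (r = 0.88), Ddx50 (0.86), Ankrd49 (0.86), Dcxr (0.86) and RP24-439I22.6 (0.85). For Arntl they were Rgs16 (r = 0.93), Ttf2 (0.90), Tdrd7 (0.89), Osbpl5 (0.88) and Adamts15 (0.88). Rgs16 is a regulator of G protein signaling and is among the thalamic markers used here.

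Differences between members within a library were then set side by side, since a shift in clock phase would move them against each other. The mean of the 9 other members minus Arntl ran from 0.564 in 5ELKO replicate 2 to 1.03 in 5EL replicate 2, with a within-group SD of 0.135. Its zero point has no meaning because levels of different genes are not per length. For 5EL it was 0.905 ± 0.132 (SD, n = 5) and for 5ELKO 0.777 ± 0.174 (SD, n = 4). EL libraries averaged 0.838 ± 0.0992 (SD, n = 3), and ELKO libraries averaged 0.898 ± 0.0984 (SD, n = 3). All 4 overlapped, and no test was run on this difference. Dbp minus Arntl ran over 0.859, from 0.104 in 5ELKO replicate 2 to 0.963 in 5EL replicate 3. Per2 minus Dbp ran over 0.868, from -1.65 in ELKO replicate 3 to -0.783 in ELKO replicate 1, which are libraries of the same genotype. That ELKO replicate 1 is the library with the high mouse Apoe value, and without it the range of Per2 minus Dbp was 0.78, up to -0.872 in 5ELKO replicate 1. Such differences cannot be turned into an hour of day, and whether the libraries were collected at different hours was not tested.

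**Figure D3:**
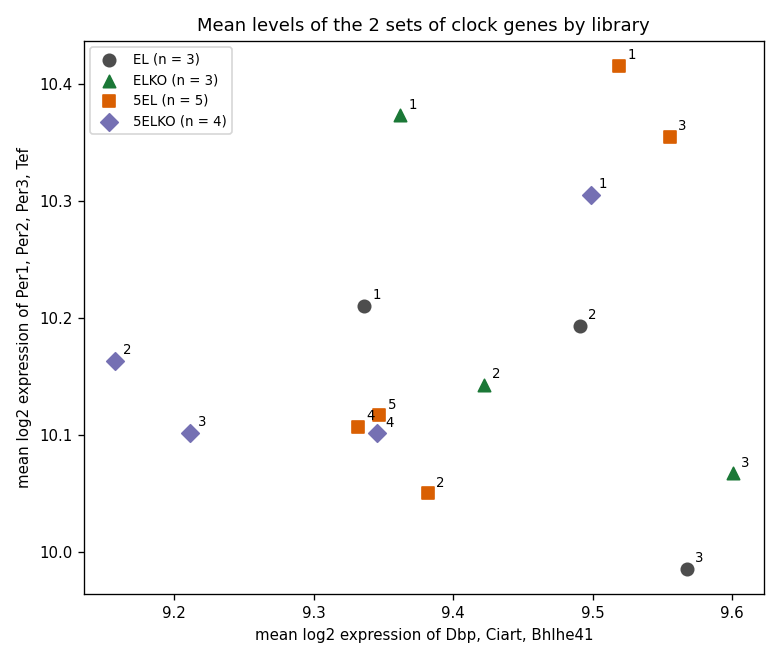
Each point is a library, numbered by replicate; the horizontal axis is the mean log2 expression of Dbp, Ciart and Bhlhe41 and the vertical axis that of Per1, Per2, Per3 and Tef. EL 3 and ELKO 3 lie at the lower right (9.57 and 9.60; 9.99 and 10.07), and 5EL 1, 5EL 3 and 5ELKO 1 are high on both axes.

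Loss of Lilrb4a in the 5xFAD background was compared on the 9 libraries of 5ELKO and 5EL. Dbp was lower in 5ELKO, and no other member passed the nominal threshold of p under 0.05. In 5EL, Dbp was 10.14, 9.92, 10.21, 9.86 and 9.90, and in 5ELKO it was 9.92, 9.63, 9.68 and 9.89. Both groups held values between 9.86 and 9.92 and so overlapped. The difference was -0.23 (SE 0.086), with a limma p of 0.0204, an adjusted p of 0.999 and a two-sided exact permutation p of 0.119, so it did not hold after adjustment. A total of 1 of 10 members passed, against 2.49% of all genes tested, and 0 members had groups that did not overlap, against 1.06%. It no longer passed the nominal threshold without 5ELKO replicate 2 (-0.18, adjusted p = 0.9996) or without 5ELKO replicate 3 (-0.19, adjusted p = 0.99999), so the call rests on these 2 libraries. Hepatocyte genes (10 of 10 measured) moved with this comparison: Alb was 7.22 to 8.38 in 5ELKO and 5.77 to 6.55 in 5EL, and Serpina3k 5.49 to 5.79 and 4.80 to 5.10. Over the 10, the mean was 5.36 to 5.91 in 5ELKO and 4.98 to 5.71 in 5EL, the latter highest in replicate 1, and Ttr on this list is also a choroid plexus gene. They were not high in 5ELKO alone: in EL replicate 1 Alb was 8.59, Serpina3k 5.89 and the mean 5.88. That mean was 5.10 and 4.92 in EL replicates 2 and 3. The part of hepatocyte genes in the Dbp call was not tested. The study's quality data list more 5ELKO samples than the libraries used here. The RNA integrity values in them reach lower in 5ELKO than in 5EL, and the part of RNA integrity was not tested either. Without 5ELKO replicate 1 the count was 3, with Ciart at -0.18 and Bhlhe41 at -0.12 beside Dbp. Without 5EL replicate 3 Nr1d1 (-0.16) and without 5EL replicate 4 Per3 (-0.18) passed beside Dbp.

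The remaining members did not pass in that comparison. The intervals of the differences show what these libraries could detect. Per3 was at -0.14 (95% CI -0.30 to 0.015), Ciart at -0.09 (-0.28 to 0.097) and Nr1d2 at -0.08 (-0.17 to 0.015). Per2, the most variable, was at -0.05 (-0.33 to 0.23), Per1 at 0.06 (-0.15 to 0.27) and Arntl at 0.05 (-0.12 to 0.23). A total of 8 members had a difference below 0 and 2 above it, with a median of -0.06, against 0.00 over all genes. Of 31 other clock genes, 0 passed by limma at the unadjusted threshold. Among them Clock, the partner of ARNTL, was at 0.06 (adjusted p = 0.999), its paralogue Npas2 at 0.07, the repressors Cry1 and Cry2 at 0.10 and 0.02, and Nfil3, which represses at D-boxes, at 0.11.

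**Figure D4:**
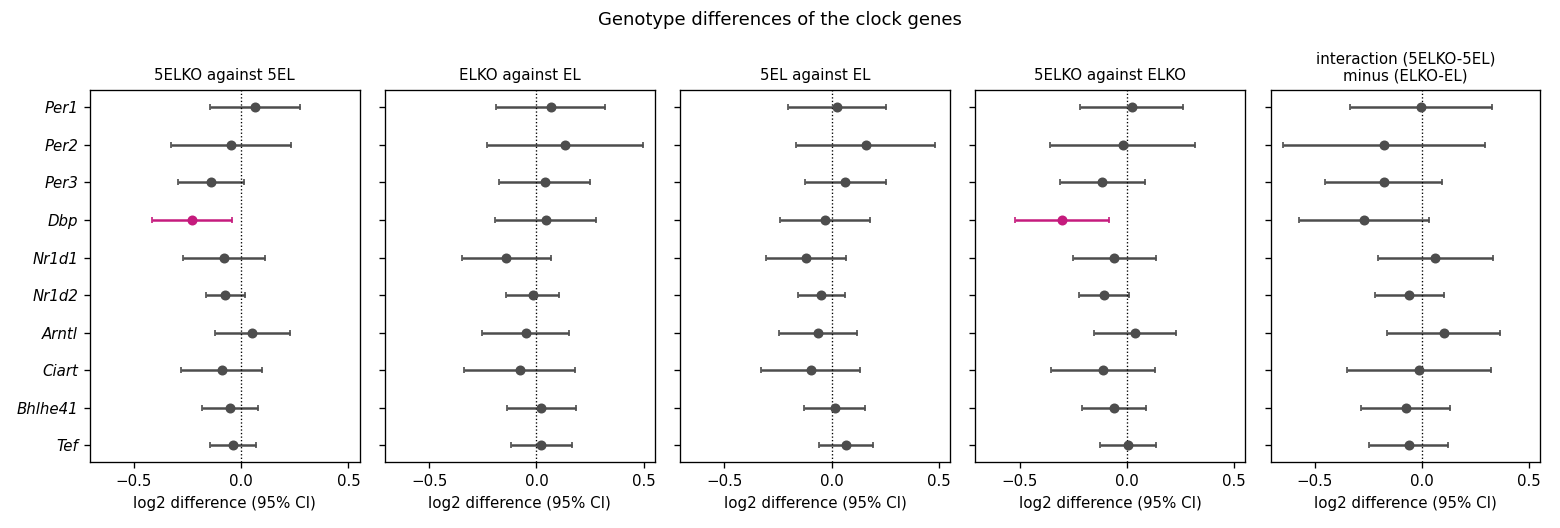
Log2 difference of each clock gene (horizontal axes; points with 95% confidence intervals from limma) in 4 genotype comparisons and their interaction; coloured points have a nominal p under 0.05. The intervals of 9 of 10 members cross 0 in 5ELKO against 5EL, and the exception is Dbp at -0.23.

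Without 5xFAD, loss of Lilrb4a was compared between ELKO and EL. By limma 0 of 10 members passed the unadjusted threshold, against 2.35% of genes. Nr1d1 was 11.11, 11.08 and 11.10 in EL and 10.92, 11.01 and 10.94 in ELKO. All 3 ELKO libraries thus lay below all 3 EL libraries. The difference was -0.14 (SE 0.097, limma p = 0.169, adjusted p = 0.998), and the exact permutation p of 0.1 is the smallest that 3 against 3 can give. Nr1d1 was the 1 member of 10 whose groups did not overlap, against 4.59% of genes. On these 6 libraries alone it passed the nominal threshold at the same difference (limma, adjusted p = 0.9997), 1 of 173 genes called, and it also did so with the replicate number as a block (limma, adjusted p = 0.691), 1 of 1113 genes called. Its overlapping neighbour Thra ran from 12.2 in EL replicate 3 to 12.9 in EL replicate 1. Dbp was at 0.04 (95% CI -0.19 to 0.28) and Per2 at 0.13 (-0.23 to 0.50). Without ELKO replicate 1 the count was again 0, with Nr1d1 at -0.12 and Per2 at -0.03.

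Among the 31 other clock genes, 1 passed in ELKO against EL: Rorb, a nuclear receptor that activates through ROREs, was at -0.26 (SE 0.087, limma, adjusted p = 0.998). It was 10.51, 10.77 and 10.88 in EL and 10.44, 10.43 and 10.52 in ELKO. The values of EL replicate 1 and ELKO replicate 3 overlapped. Without EL replicate 3 the difference was -0.18 and no longer passed. With the replicate block, Hlf, a D-box activator, passed at -0.19, and Id2, an inhibitor of helix-loop-helix proteins, at -0.30, both with an adjusted p of 0.691.

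The effect of 5xFAD with Lilrb4a intact was read from 5EL against EL, which shares the EL libraries with the comparison just given. By limma 0 of 10 members passed, against 7.7% of genes, and 0 had groups that did not overlap, against 3.26%. The differences ran from -0.12 (Nr1d1, SE 0.087) to 0.16 (Per2, SE 0.15), and the 10 were split 5 above and 5 below 0. Dbp was at -0.03 (95% CI -0.24 to 0.18). With the replicate block, 2 members passed, Per2 at 0.27 and Nr1d1 at -0.17 (limma, adjusted p = 0.511 each). That block spans all 15 libraries by number. Same-numbered EL and 5EL libraries gave r of only 0.05, 0.23 and 0.19, so the numbers are not shown to pair EL with 5EL. Of the other clock genes 6 of 31 passed, with an adjusted p of 0.63 each. Among them Rorb (-0.30), Rora (-0.28), Hlf (-0.22) and Id2 (-0.32) were lower in 5EL, and Wdr5 (0.15) was higher. Rora is a RORE activator, and Wdr5 is a part of histone methyltransferase complexes. Without EL replicate 3, Rora at -0.16, Hlf at -0.16 and Id2 at -0.10 no longer passed. The number of genes called over the whole table then went from 1217 to 355.

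The effect of 5xFAD without Lilrb4a was read from 5ELKO against ELKO. Dbp was 9.89, 10.10 and 10.25 in ELKO and 9.92, 9.63, 9.68 and 9.89 in 5ELKO. It was lower in 5ELKO by limma at the nominal threshold, with a difference of -0.30 (SE 0.10, limma p = 0.0103, adjusted p = 0.999, exact permutation p = 0.114), and ELKO replicate 1 lay within the range of 5ELKO. Dbp was the 1 of 10 members that passed, against 2.37% of genes. Without ELKO replicate 3 it was -0.22 and no longer passed, so the call rests on that library. Without ELKO replicate 1 it was -0.40 (limma, adjusted p = 0.793), and the genes called over the whole table went from 375 to 790. Hepatocyte genes moved here too, with Alb at 5.69 to 6.23 and Serpina3k at 4.75 to 5.11 in ELKO, both below every 5ELKO library, and their part was not tested. The call shares the 5ELKO libraries with 5ELKO against 5EL. Nr1d2 was 11.61, 11.59, 11.48 and 11.51 in 5ELKO and 11.69, 11.62 and 11.65 in ELKO, and was the 1 member of 10 whose groups did not overlap, against 3.4% of genes. Its difference was -0.11 (SE 0.054, limma p = 0.0681, adjusted p = 0.999, exact permutation p = 0.0571). Without 5ELKO replicate 1 (-0.13) or EL replicate 1 (-0.11) it passed beside Dbp. Of the 31 other clock genes 0 passed by limma at the unadjusted threshold.

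Whether loss of Lilrb4a acted differently with and without 5xFAD was tested as an interaction over all 15 libraries. By limma 0 of 10 members passed, against 2.73% of genes. Dbp came closest, at -0.27 (SE 0.14, 95% CI -0.58 to 0.033, limma, adjusted p = 0.9996). It passed the nominal threshold without 5EL replicate 4 (-0.31), without 5ELKO replicate 1 (-0.32) and without ELKO replicate 1 (-0.37). Per2 was at -0.18 (95% CI -0.65 to 0.29) and Arntl at 0.10 (-0.16 to 0.36). The Dbp call in 5ELKO and the lack of one in ELKO are therefore not shown to differ.

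EL and ELKO libraries with the same number deviated together from their group means, so the members were compared between the 3 pairs. Per1, Per2, Per3 and Tef were lower in the number 3 pair than in the number 1 pair, while Dbp, Ciart, Bhlhe41, Arntl, Nr1d2 and Nr1d1 were above it. For Per2 the pair means were 8.94, 8.67 and 8.53, a difference of -0.41 from number 1 to number 3. For Per1 they were 10.80, 10.66 and 10.54. For Ciart they were 8.11, 8.15 and 8.42, a difference of 0.31, and for Dbp 9.92, 10.09 and 10.17, a difference of 0.25. The differences ran from -0.41 to 0.31, and that of Nr1d1 was 0.01. The median size of the difference between pairs 1 and 3 was 0.193 over the members and 0.136 over all genes, and ELKO and EL within a pair differed by a median of 0.0779 over the members.

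**Figure D5:**
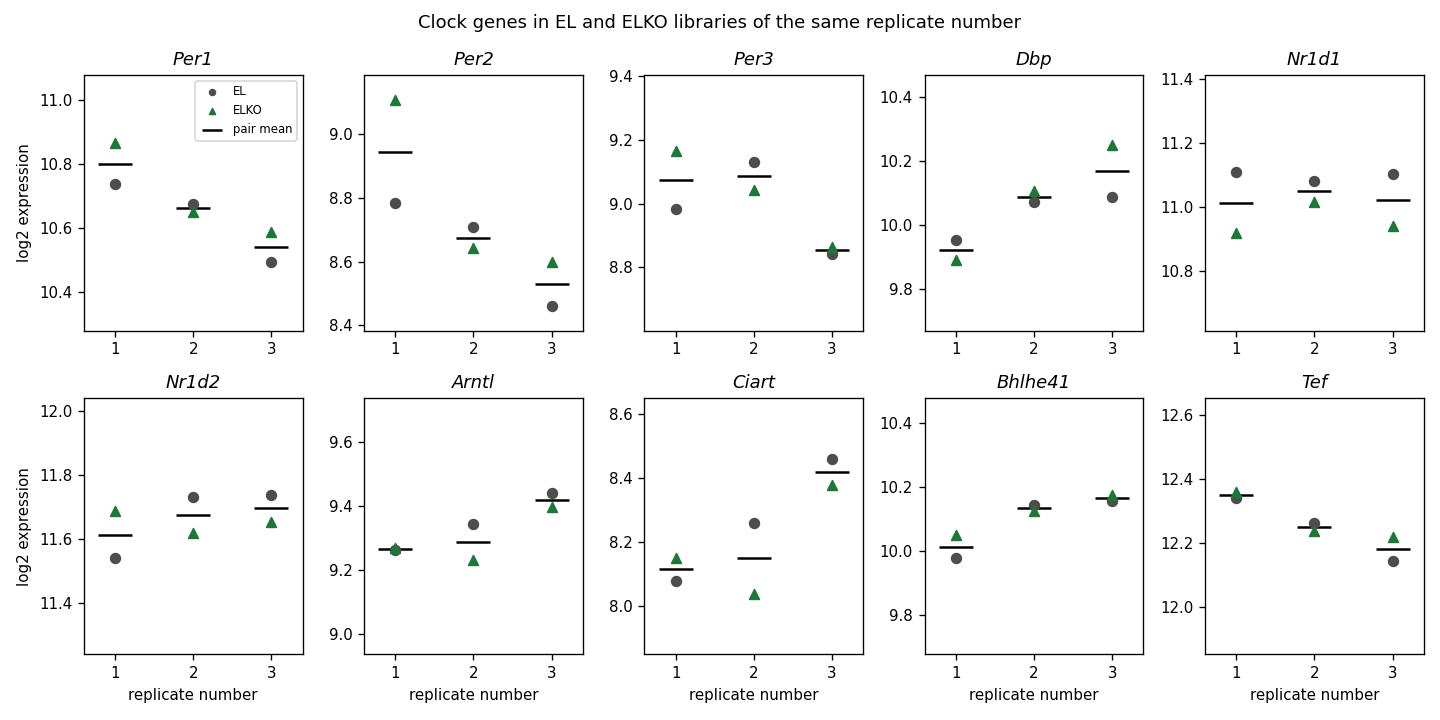
Log2 expression (vertical axes, all of the same span) of each clock gene in EL (circles) and ELKO (triangles) libraries by replicate number (horizontal axes); the bar is the pair mean. The pair means of Per2 go from 8.94 at number 1 to 8.53 at number 3, and those of Ciart from 8.11 to 8.42. ELKO lies below EL in all 3 pairs for Nr1d1, as it would in any pairing, because the groups do not overlap.

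A moderated F test of the number, in a limma fit with genotype on these 6 libraries, called 4 of 10 members at the nominal threshold: Per1 (adjusted p = 0.0779), Per2 (adjusted p = 0.0867), Ciart (adjusted p = 0.12) and Dbp (adjusted p = 0.122). The background was 30.3% of genes, so the share of members was close to that of all genes. After adjustment 0 members passed, against 11.5% of genes. Without the number 3 pair 0 members were called. Without the number 1 pair, which holds the library with high mouse Apoe, 3 were called: Per1, Per3 and Ciart. The number 3 pair also had the lowest mean of astrocyte genes (5 of 5 measured). It was 11.3 in EL and 11.5 in ELKO, against 11.7 to 12.05 in the other 13 libraries. Gfap was lowest in both libraries of the pair (9.66 and 9.93, against 10.36 to 12.13 elsewhere). Aqp4 and Slc1a3 were lowest in EL replicate 3 only, and Aldh1l1 and Gja1 were lowest in neither. EL replicate 3 was highest in erythroid genes, at 6.93 over the 3 of 5 that passed the filter. The part of these in the clock gene differences was not tested. Over the 15 libraries the r with the leading component of all genes was 0.70 for Ciart, 0.50 for Dbp and -0.48 for Tef.

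Within pairs, ELKO was below EL in all 3 for 1 member, Nr1d1, by 0.19, 0.07 and 0.16 on the log2 scale in pairs 1 to 3, and above EL in all 3 for 0 members. For Nr1d1 this repeats that its groups did not overlap, since any pairing of these libraries would give it. In the number 1 pair ELKO exceeded EL in Per2 by 0.32, in Per3 by 0.18 and in Nr1d2 by 0.15. In the number 2 pair it lay below EL in Ciart, at -0.22, and in Nr1d2, at -0.11. In the number 3 pair it exceeded EL in Dbp by 0.16. The libraries of a pair were therefore close in some members and apart in others. Of the 31 other clock genes, 9 were called by number, against 30.3% of all genes, and 4 of them after adjustment, against 11.5%, both shares close to the background. From number 1 to number 3, Id2 differed by 0.64 (adjusted p = 0.0194) and Skp1a, a ubiquitin ligase subunit, by 0.32 (adjusted p = 0.0277). Btrc, a ubiquitin ligase that acts on PER proteins, differed by -0.32 (adjusted p = 0.0305) and the kinase Gsk3b by -0.31 (adjusted p = 0.0331). Those called before adjustment included Rora, Bhlhe40, Csnk1d and Tipin. Clock was at -0.13, Cry1 at -0.05, Cry2 at -0.15, Npas2 at 0.08 and Nfil3 at -0.07.

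The same fit on replicates 1 to 4 of 5EL and 5ELKO, whose numbers share no common deviation over all genes, called Per1 and Per2 at the nominal threshold, 2 of 10 members against 3.57% of genes, with an adjusted p of 0.9998 for both. Per1 was 10.93 and 10.86 in the libraries numbered 1, 10.42 and 10.76 in those numbered 2, 10.81 and 10.70 in those numbered 3, and 10.50 and 10.58 in those numbered 4. The libraries numbered 1 were the highest of their genotype in both genes. One of them, 5EL replicate 1, is rich in choroid plexus genes. Leaving out the libraries rich in choroid plexus genes changed the count of members called in none of the 5 genotype fits.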

How the data were processed

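The deposited values were log2 expression of 29659 genes in each of 15 libraries, from -2.27 to 18.98. Per the labels and methods, the authors used Trimmomatic 0.39 for trimming and HISAT2 2.2.1 for alignment to GRCm38, counted read pairs in exons without strand with featureCounts 2.0.3 and ran DESeq2 1.38.3. The transform behind the deposited log2 values is not given in the sources used here. It may draw low genes towards their mean. The deposited values hold no counts, so no counting interval was computed.

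Genes whose linear value reached 10 in at least the number of libraries that the smallest group holds were tested with limma 3.58.1 in R 4.3.3 (trended variance, two-sided, Benjamini-Hochberg adjustment over all genes tested): 15743 genes on the 9 libraries of 5ELKO and 5EL, 15804 on 15 libraries otherwise. A call is a nominal p under 0.05. The scripts were tested on simulated data. Single members also had two-sided exact permutation tests, and correlations 100000 permutations within groups. The methods draw the 5EL and 5ELKO samples from mice of those genotypes. For EL and ELKO the sources used here do not say whether libraries came from separate animals, so p-values there measure the spread between these samples.

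EL and ELKO replicate numbers come from the labels. Same-numbered libraries deviated together (r = 0.45, 0.33 and 0.74 over 15804 genes), so a replicate block was fitted as an alternative. The same correlation was not examined between libraries of different numbers, so these values do not show that it is particular to same-numbered libraries. In groups of 3 the deviations sum to 0, so a deviation shared by the number 3 libraries also makes the others alike. The values thus do not show that numbers 1 and 2 mark pairs. Named were the 10 members, other clock genes that passed or belong to the core loop, and the 5 genes most like Dbp and Arntl; any other gene was named with its values known. Some genes under this rule are not reported here. The members and lists were chosen with earlier results of these data known. Coordinates come from GENCODE M21 and promoter sequences from RefSeq. Figures were drawn with matplotlib 3.10.9.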

Additional observations from a re-analysis of the deposited data

Results flagged for a closer look

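Rorb was singled out because the effect of losing Lilrb4a on it differed between the backgrounds with and without 5xFAD by the test of the difference itself. The interaction was 0.32 on the log2 scale (SE 0.11, limma at the nominal threshold, adjusted p = 0.9996), from 0.06 in 5ELKO against 5EL and -0.26 in ELKO against EL. It did not hold after adjustment over all genes. Rorb was the 1 of 31 other clock genes called in the interaction, against 2.73% of all genes. Its call in ELKO against EL was lost without EL replicate 3. No member stood out as a single far library: in the 20 sets of 5EL or 5ELKO values of a member, 0 had a library far from the others by Dixon's criterion, which chance meets in about 1 in 20 groups.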

How the results depend on the processing

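The counts of members called kept within 1.5 times of the main value under no filter on low values, recentring, a variance prior without a trend and robust empirical Bayes, in all 5 genotype fits and between the EL and ELKO pairs. With the replicate block, ELKO against EL went from 0 to 1 member (Nr1d1), as it did on the 6 libraries of these groups alone with no block (173 genes called), and 5EL against EL went from 0 to 2 (Per2 at 0.27 and Nr1d1 at -0.17). The block changed no other count of members called. The 5EL and 5ELKO numbers gave correlations of -0.07, -0.24, -0.03 and 0.14 and so mark no pairing. Same-numbered EL and 5EL libraries gave 0.05, 0.23 and 0.19. The 2 calls with the block in 5EL against EL thus rest on numbers not shown to pair libraries. Leaving out the number 3 pair, an alternative chosen after seeing the data, took 5ELKO against ELKO from 1 to 0. Leaving out 1 library at a time gave 0 to 3 members called in 5ELKO against 5EL, 0 to 2 in 5ELKO against ELKO, 0 to 1 in 5EL against EL and in the interaction, and 0 in ELKO against EL. Leaving out 1 pair at a time gave 0 to 5 members between the pairs, and there were 2 in the same fit on 5EL and 5ELKO. Of 45 correlations, 13 passed in the main analysis, 11 without centring, 9 without the 2 farthest libraries and 10 to 14 without 1 library, an alternative added after seeing the data, as was the same for the contrast. The range of the contrast with Arntl was 0.471, or 0.859 for Dbp minus Arntl, and 0.326 to 0.471 without 1 library, the lowest without 5ELKO replicate 2. Over all alternatives, 1150 values of members were recomputed: 1120 stayed on their side of the threshold, 13 lost a call, 17 gained one and 0 called values reversed. A planned covariate for Xist was not run because its values lay at the floor in all 15 libraries. The cause of these changes was not tested. The deposited values hold no counts, so the limits are the intervals given with the differences.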

Other observations

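The 10 members were also set against 4 lists of genes that respond to the state of the animal or mark choroid plexus, 40 relations in all, with group means removed over 15 libraries. None held after adjustment (smallest adjusted p = 0.142), while 7 had a permutation p under 0.05. Nr1d1 ran against the glucocorticoid-responsive genes, among them Fkbp5 and Tsc22d3 (r = -0.64, permutation p = 0.00355; rho = -0.76, permutation p = 0.00232), with -0.53 without the 2 farthest libraries. It was -0.69 within the 9 5xFAD libraries and -0.80 within the other 6. Per3 ran with immediate early genes such as Fos and Egr1 (r = 0.72, permutation p = 0.0108; rho = 0.73, permutation p = 0.00912), with 0.58 without the 2 farthest libraries, 0.52 within the 5xFAD libraries and 0.99 within the others. The remaining relations with a permutation p under 0.05 were positive. With glucocorticoid-responsive genes r was 0.64 for Ciart, 0.60 for Per2 and 0.51 for Per3. With immediate early genes r was 0.64 for Per1 and 0.62 for Tef. The collection hour of these libraries was not tested.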
